A study of Mustela putorius furo with 7 samples.

Results

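The 100 kb windows of the ferret genome in which open chromatin fell together in CFTR-knockout pancreatic duct cells are described here. The genome assembly was divided into bins of 100 kb along each scaffold. For every accessible region, the change was the mean log2(signal + 1) of the knockout libraries minus that of the wild-type libraries. A bin counted as a closing window when it held at least 5 regions and their median change was −1 or lower, and 13 scaffolds that the rule set aside were left out. The rule found 187 closing windows, 2.42% of the 7712 windows with at least 5 regions, on 110 scaffolds. All regions in them, whichever way they changed, are the members: 1171 of the 95129 regions measured, or 1.23%. Because the members were chosen by the difference between knockout and wild type, their differences are given as a description and without a test.

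DNA in a nucleus is wrapped around nucleosomes, and stretches free of nucleosomes, such as active promoters and enhancers, are open to proteins and to enzymes. Bulk ATAC-seq measures this accessibility with a transposase, which cuts open DNA and attaches sequencing adapters to it. CFTR is a chloride and bicarbonate channel of the apical membrane, and pancreatic duct cells use it to secrete an alkaline fluid. Neighbouring regions can share regulation, since enhancers lie close to the genes they act on and chromatin states often spread over many nucleosomes.

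The study compared polarized pancreatic ductal epithelial (PDE) cultures of homozygous CFTR-knockout ferrets (CF) with cultures of wild-type (WT) ferrets. Both came from newborns aged 1 to 3 days, were grown for 10 passages and were then kept for 14 days at an air-liquid interface; about 50000 cells of each culture were used. The passages served to remove other cells of the pancreas, and how far other cell types remained in these cultures, and in which genotype, was not tested here. The labels number 3 CF and 4 WT donors, whereas in the methods the donor number does not differ between genotypes; the spread given below is therefore that between libraries. No annotation or sequence of the MusPutFur1.0 assembly was used here. Genes, sequences and markers of the duct are therefore not given, and windows and regions are named by scaffold and position, counted from 1.

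The reads recovered in regions ran from 8469877 to 11047724 in the CF libraries and from 3226534 to 8172005 in the WT libraries. WT3 was the shallowest. The lowest value of any region was 1 read, worth a signal of 0.562 in CF3 and of 3.08 in WT3, so a region with 1 read in every library would show a change of −0.66. The replicate numbers of the matrix columns and of the peak lists did not correspond: the best matching list had the same genotype for 7 of 7 columns and the same number for 1 of 7. Libraries are therefore named separately for the matrix and for the lists. In a bulk assay, fewer cells with an open region and a smaller opening in every cell cannot be told apart.

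The median log2 signal over member regions was lower in each CF library than in any WT library. It was 3.92 in CF1, 3.85 in CF2 and 3.96 in CF3. In WT it was 5.18 in WT1, 5.26 in WT2, 5.24 in WT3 and 5.24 in WT4. These medians did not overlap between the 2 genotypes, a separation that the rule favours, and those of a genotype lay close together. Across all regions, by contrast, the median of the library-averaged level was 4.68 in CF and 4.65 in WT. The corresponding member levels were 3.84 and 5.08. Members had a median change of −1.26, with the middle 50% between −1.91 and −0.42, while the median over all regions was 0.03. In the 298 windows that opened together, chosen by the mirror image of the rule, the 1973 regions had a CF level of 4.87 and a WT level of 3.56. Regions of the other windows with at least 5, closing windows left out, had levels of 4.94 in CF and 4.87 in WT.

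**Figure D1:**
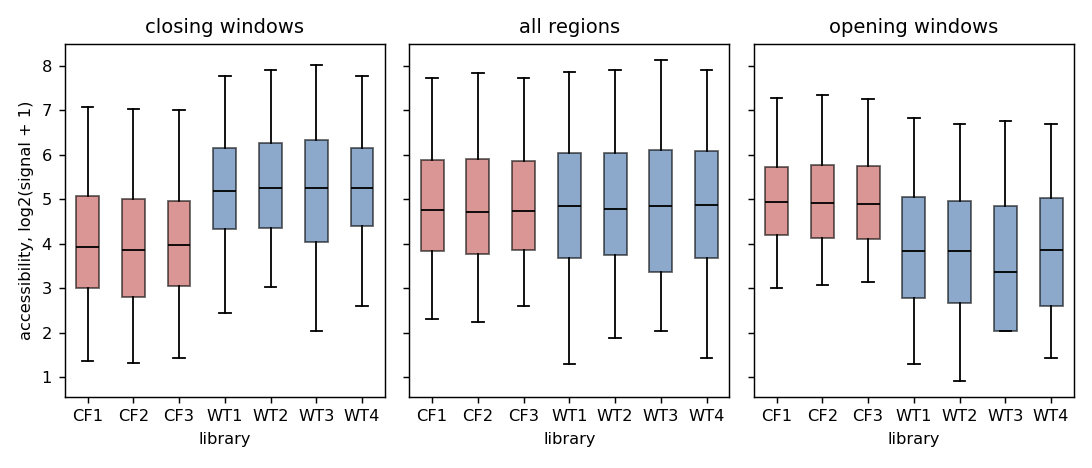
Log2(signal + 1) of regions in each library, for the members (closing windows), all regions and regions of opening windows; boxes span the middle 50% with the median as a line, and whiskers run from the 5th to the 95th percentile. In closing windows the 3 CF medians lie between 3.85 and 3.96 and the 4 WT medians between 5.18 and 5.26, whereas over all regions the boxes of the 7 libraries are at a similar height.

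Most closing windows lay not far below the threshold. Their medians ran from −2.85 to −1.002 with a median of −1.28, against 0.02 over all windows with at least 5 regions. Below −2 there were 16 windows, from −2 to −1.5 there were 32, and the other 139 had a median above −1.5. The 3 windows just inside the threshold were GL897077 at 2600 to 2700 kb, GL896960 at 4600 to 4700 kb and GL896918 at 7400 to 7500 kb, at −1.004, −1.003 and −1.002. Just outside it were GL896900 at 5300 to 5400 kb, GL897041 at 4000 to 4100 kb and GL896986 at 300 to 400 kb, at −0.999, −0.997 and −0.995. GL896900, although outside, had 3.81 times as much summed signal in WT as in CF, and GL896918, inside, 1.65 times. With each library left out, the median of GL896960 ran from −1.39 to −0.43, so windows next to the threshold entered or left with 1 library. The count of windows moved with the scaling: it was 80 with the library size alone, which raised the median change of all regions to 0.38, and 109 with the library size without the most read scaffold. It was 108 with a pseudocount of 5. The windows found with these 3 settings were all among the 187. When regions with a mean under 30 reads were dropped, 27 windows met the rule, of which 19 (10.2% of the 187) were among the 187. This filter kept 457 of the 1171 members and left fewer windows with 5 regions, so most closing windows relied on regions with few reads.

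**Figure D2:**
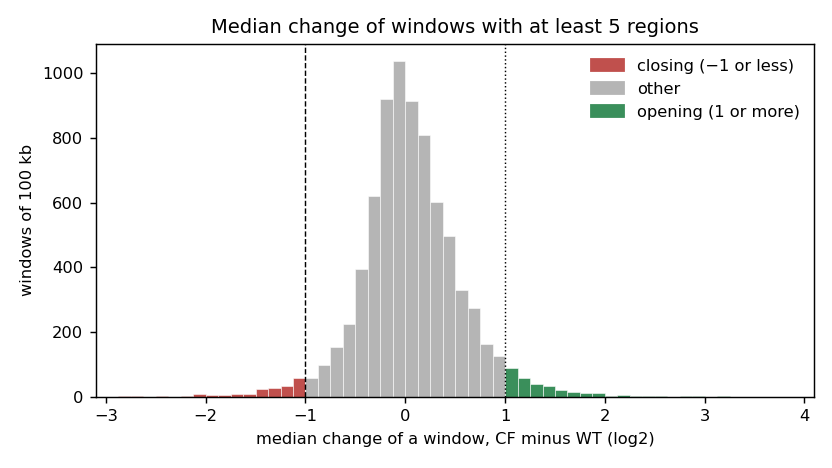
Number of 100 kb windows with at least 5 regions by their median change, CF minus WT in log2; red bars mark the 187 closing windows, green bars the 298 opening windows and grey bars the rest of the 7712. The dashed and dotted lines are the thresholds of −1 and 1, and 139 of the closing windows lie between −1.5 and −1.

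Closing windows held fewer regions than other windows. They had 5 to 13 regions with a median of 6, against a median of 7 and a maximum of 30 over all windows. Exactly 5 regions were found in 82 of them, or 43.9%, compared with 22.1% of all windows, and only 11 had 10 or more. The first to the last region of a window spanned a median of 72.8 kb. A window of 5 regions needs 3 low ones to meet the rule, so that its median rests on fewer regions than that of a large window. Opening windows also held fewer regions on average, with 1973 in 298 windows, against 60419 in all 7712.

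Within a closing window, decreases were common but not universal. Of the members, 981 (83.8%) were lower in CF, 727 (62.1%) had a change below −1 and 39 (3.33%) had a change above 1. Over all regions the shares were 48.2%, 12.5% and 15.3%. Those of the members follow in part from the rule on the median. Every region was lower in CF in 57 windows (30.5%), and this was so in 2.55% of all windows. The SD of the change among regions of 1 window had a median of 1.14 in closing windows, 1.05 in opening windows and 0.85 in all windows. Regions of a closing window thus differed from one another more than regions of a typical window, as did those of opening windows. The rule used the same changes, so nothing further is read from this spread.

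Of the members, 436 (37.2%) were called closed across the whole matrix (limma, adjusted p under 0.05 and log2 change below −1), and 6.26% of all regions were. Opened regions numbered 8 among the members, and 4.31% of all regions were opened. The CF libraries all lay below the WT libraries in 581 members (49.6%), as in 12.8% of all regions, and all above them in 31 members, as in 11.5% of all regions. No filter on low values was applied, so all 1171 members were tested. These shares follow from the rule, which used the same values, and nothing is read from them. At least 1 closed region was present in 176 closing windows (94.1%, against 33.3% of all windows). At least 3 were present in 75 (40.1%, against 2.33%). More than 50% of the regions were closed in 32, and by the rule these were the only such windows among all 7712. None of the 7712 windows had all its regions closed. When summed over the regions of a window, the signal was lower in each CF library than in every WT library in 168 closing windows (89.8%), and in 19.9% of all windows.

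The counts for single libraries follow in part from the rule, which used all 7 libraries, and nothing is read from them. The share over all windows was counted only for all libraries together, at 19.9%. The summed signal of CF1 was below the lowest WT library in 172 of 187 windows, that of CF2 in 179 and that of CF3 in 178. WT1, WT2 and WT3 each lay above the highest CF library in 179 windows, and WT4 did so in 176. Among the CF libraries CF1 was most often the highest, in 76 windows, and CF2 most often the lowest, in 87. Among the WT libraries WT3 was most often the highest, in 75 windows, and WT1 most often the lowest, in 70.

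The peak lists, called by the authors in each library from the same reads, showed the same contrast. A peak overlapped 53.0% of the members in list CF1, 50.6% in CF2 and 41.3% in CF3. The shares over all regions were 77.2%, 74.9% and 64.9%. In the WT lists, a peak overlapped 78.3% of the members in WT1, 48.8% in WT2, 87.5% in WT3 and 67.6% in WT4, compared with 62.8%, 39.6%, 74.5% and 55.8% of all regions. Each CF list thus covered fewer members than regions in general and each WT list more. List WT2, with 48417 peaks the shortest, covered fewer members than lists CF1 and CF2, so the shares themselves overlapped between genotypes.

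No CF list had a peak in 401 members (34.2%), and this was so for 9.89% of all regions. In 67 members (5.72%, against 1.04% of all regions) all 4 WT lists and no CF list had a peak, and in 14 (1.20%, against 4.48%) all 3 CF lists and no WT list did. A peak was present in all 7 lists for 258 members. These shared members were not lost in CF but were weaker: their median change was −0.88, against −0.16 over the 25143 regions with a peak in all 7 lists, and 115 of them (44.6%) were called closed, against 6.79% of such regions in all. Where a peak was called among the members, its median fold enrichment over the local background was 5.43 to 5.83 in the CF lists and 6.28 to 6.87 in the WT lists; over all regions it was 5.43 to 5.62 and 6.15 to 6.32.

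**Figure D3:**
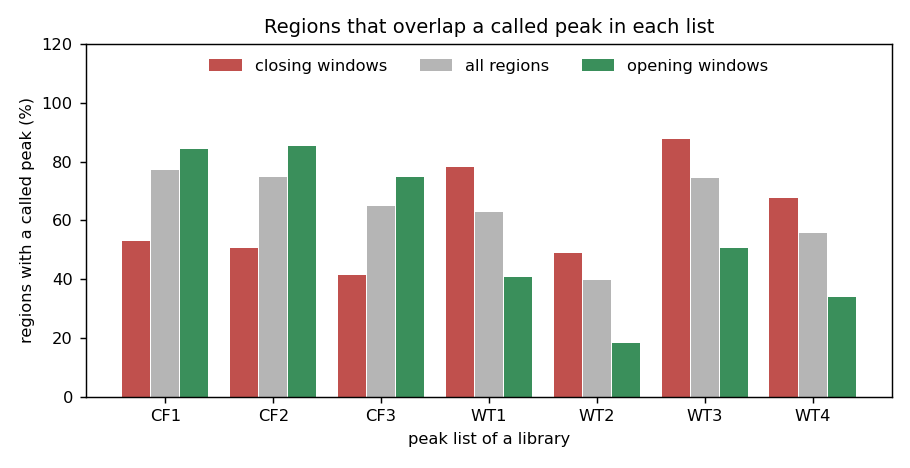
Percentage of regions that overlap a called peak by at least 1 bp in each of the 7 peak lists, for the members (closing windows), all regions and regions of opening windows. The bars of closing windows are below those of all regions in the 3 CF lists and above them in the 4 WT lists, and opening windows show the reverse.

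The window with the lowest median, −2.85, was GL897183 at 1100 to 1200 kb. Summed over its 9 regions, the signal was 108 in CF1, 103 in CF2 and 98.3 in CF3, against 371 in WT1, 422 in WT2, 381 in WT3 and 404 in WT4. The libraries of each genotype lay close together, and the mean of WT was 3.83 times that of CF. Of its 9 regions 8 were lower in CF and 5 were called closed, and 6 had no peak in any CF list. The remaining region rose by 0.14, so the window was not closed throughout.

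A pair of regions in this window was almost silent in CF. GL897183:1163139-1163562, 424 bp wide, had the lowest change of the window, −4.53 ± 0.63 (SE). It held 1 read in every CF library, the lowest value of the matrix, and 34, 37, 10 and 25 reads in WT1 to WT4; no fold is given against that level. GL897183:1176097-1176676 had the highest WT signal of the window, at 67.5, 94.2, 117 and 50.3 in WT1 to WT4 and 0.784, 4.48 and 3.93 in CF1 to CF3. It had a peak in all 4 WT lists and in no CF list.

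GL897099 held 3 of the 187 windows, 25.0% of its 12 windows with at least 5 regions. At 700 to 800 kb, where 9 regions had a median change of −2.10, the summed signal was 111, 51.5 and 64.6 in CF1 to CF3 and 348, 516, 566 and 469 in WT1 to WT4. The WT mean was 6.26 times the CF mean, the highest ratio of any closing window. Next to it, at 800 to 900 kb, 5 regions had a median of −2.64 and summed to 36.9, 25.4 and 32.6 in CF1 to CF3 against 138, 211, 188 and 127 in WT1 to WT4. In the first of these windows 8 of 9 regions, and in the second 4 of 5, had no peak in any CF list.

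GL897099:798930-799650 was both the lowest and the most WT-accessible region of its window. Its signal was 18.8, 4.48 and 10.1 in CF1 to CF3 and 76.3, 180, 237 and 142 in WT1 to WT4, a change of −3.80 ± 0.44 (SE), with a peak in all 4 WT lists and no CF list. In the window next to it, GL897099:805854-806915 had the highest WT signal, 56.7 ± 10.8 over the 4 WT libraries, against 11.3 ± 4.36 over the 3 CF libraries (SD). GL897099:849894-850413 had the lowest change there, −3.70, with 7 reads in CF1 and 1 read in each of CF2 and CF3. The third window of this scaffold, at 200 to 300 kb, had 11 regions, 8 of them called closed, the most of any of the 7712 windows on the scaffolds kept. Its sums were 249, 251 and 370 in CF1 to CF3 and 838, 791, 1009 and 892 in WT1 to WT4. Unlike in the other windows of GL897099, every region of it had a peak in some CF list.

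**Figure D4:**
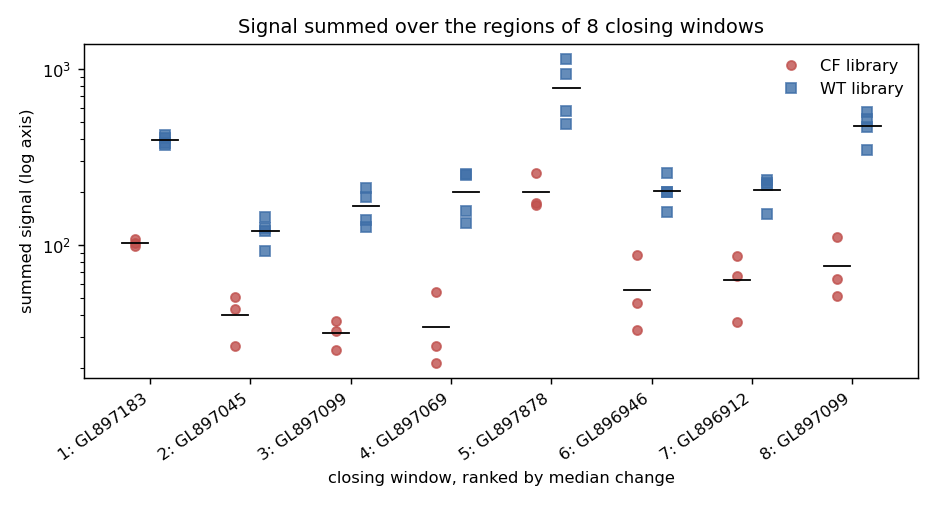
Signal summed over the regions of each of the 8 closing windows with the lowest median change, on a log axis; circles are CF libraries, squares are WT libraries and black lines are the means of the 3 CF and 4 WT libraries. In every one of the 8 windows all CF points lie below all WT points, with WT means from 2.99 to 6.26 times the CF means.

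Among the other windows of the lowest 8, GL897069 at 800 to 900 kb summed to 54.1 in CF1, 26.9 in CF2 and 21.3 in CF3, and to 251, 254, 157 and 134 in WT1 to WT4. All of its 5 regions were lower in CF and lacked a CF peak. Its leading region, GL897069:893156-893839, held 18 reads in CF1 but 1 read in each of CF2 and CF3, while the signal over the 4 WT libraries was 59.6 ± 10.9 (SD).

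GL897045 at 4800 to 4900 kb, with a median of −2.66, summed to 43.1, 26.9 and 50.6 in CF1 to CF3 and to 144, 124, 120 and 92.2 in WT1 to WT4. Its leading region, GL897045:4841282-4841823, averaged 4.70 ± 3.62 over the 3 CF libraries and 38.3 ± 9.17 over the 4 WT libraries (SD). This window rested on few reads: with every value raised to at least 1 read of WT3, its median was −1.70. GL896946 at 1300 to 1400 kb was affected alike, going from −2.15 to −1.28, and both stayed inside the threshold.

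GL896946:1391497-1392809, the most WT-accessible region of the latter window, averaged 137 ± 27.1 over the 4 WT libraries and 26.9 ± 9.97 over the 3 CF libraries (SD). GL896946:1395225-1395597 had the lowest change there, −3.02 ± 0.71 (SE). GL896912 at 20100 to 20200 kb summed to 86.3, 67.1 and 36.5 in CF1 to CF3 and to 150, 219, 234 and 225 in WT1 to WT4. All 5 of its regions were lower in CF. Its most WT-accessible region, GL896912:20183848-20184486, averaged 88.3 ± 17.8 over the 4 WT libraries and 19.5 ± 4.73 over the 3 CF libraries (SD), and GL896912:20123921-20124479 had the lowest change, −2.46.

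The windows with the most regions had moderate medians. GL896994 at 300 to 400 kb held 13 regions, of which 11 were lower in CF and 6 were called closed, with a median of −1.35. Its sums were 343, 410 and 372 in CF1 to CF3 and 721, 764, 861 and 717 in WT1 to WT4. GL896956 at 5500 to 5600 kb also held 13 regions, and all 13 were lower in CF, from −2.65 to −0.44. Its sums were 212, 266 and 247 in CF1 to CF3 and 622, 686, 643 and 595 in WT1 to WT4, so that WT was 2.63 times CF with little spread within a genotype. GL896906 at 1100 to 1200 kb, picked out after its values were seen, had 6 of 8 regions called closed, and its sums averaged 104 ± 11.6 over the 3 CF libraries and 592 ± 158 over the 4 WT libraries (SD).

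Closing windows were scattered over the scaffolds that the rule kept. When the 13 scaffolds set aside were added back, 270 of 8338 windows (3.24%) met the rule, against 187 of 7712 (2.42%). Of the regions in these 270 windows 66.8% were members, and the rest lay on the 13 scaffolds, which are not described here. A single window was found on 65 scaffolds, 2 on 29, 3 on 9, 4 on 3 and 5 on 3. GL896907 held 10, 9.71% of its 103 windows. Adjacent closing windows formed 12 runs, each of 2 windows, and no run was longer. They lay on GL896900, GL896902, GL896946, GL896986, GL896995, GL897006, GL897010, GL897017, GL897099, GL897280 and, at 2 places, GL896907. The run medians ran from −2.28 on GL897099 to −1.05 on GL896986.

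Among the runs, GL896986 at 7800 to 8000 kb had the highest summed WT signal after the first run of GL896907. It summed to 1082, 858 and 827 in CF1 to CF3 and to 1833, 1557, 2184 and 1441 in WT1 to WT4, and 7 of its 11 regions were called closed. GL897010 at 5200 to 5400 kb had 11 of 12 regions lower in CF and summed to 261, 296 and 297 in CF1 to CF3 and to 732, 1123, 1055 and 1058 in WT1 to WT4. GL897280 at 100 to 300 kb had 13 of 14 regions lower, and 4 of them were called closed. In the run on GL896946 the genotypes overlapped, with 864, 574 and 652 in CF1 to CF3 and 917, 679, 898 and 672 in WT1 to WT4.

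The longest stretch with repeated closing windows was on GL896907 from 15800 to 16800 kb. Stretches were defined after the values were seen, as 3 or more closing windows at most 400 kb apart. Of its 10 bins 5 were closing windows, with 40 members and a median of −1.25. The 37 regions in the bins between had a median of −0.15, and 22 of them were lower in CF. Accessibility did not fall across the whole stretch: the bin at 16500 to 16600 kb had a median of 0.43 with 1 of 8 regions lower in CF. No region of the stretch was called opened. Summed over all 77 regions, the signal was 3119, 3353 and 3223 in CF1 to CF3 and 5001, 5863, 5708 and 5276 in WT1 to WT4. The second such stretch, on GL896900 from 18700 to 19200 kb, had 3 closing windows in 5 bins, and 15 of its 21 regions were lower in CF.

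In the bins around closing windows the decrease was small. The rule set the median inside a window, and regions of other closing windows were left out of these bins. The step at the edge of a bin therefore follows in part from the rule. Regions outside closing windows in the bin 100 kb before had a median change of −0.14, and those in the bin 100 kb after had −0.12. At 200 kb the medians were −0.06 and −0.05, and at 400 kb −0.04 and 0.06, close to the 0.03 of all regions. The share called closed was 9.72% and 10.1% in the bins next to a window. Of the adjacent bins with at least 5 regions, 12 of 91 before and 12 of 79 after were themselves closing windows, or 13.2% and 15.2%, beside 2.42% of all windows. Both counts are the same 12 runs of 2 windows, seen from either side, and so are not separate observations. By distance from the nearest window edge, 12.2% of the 392 regions within 25 kb were called closed, 7.80% of those at 50 to 100 kb and 5.54% of those at 500 to 1000 kb.

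**Figure D5:**
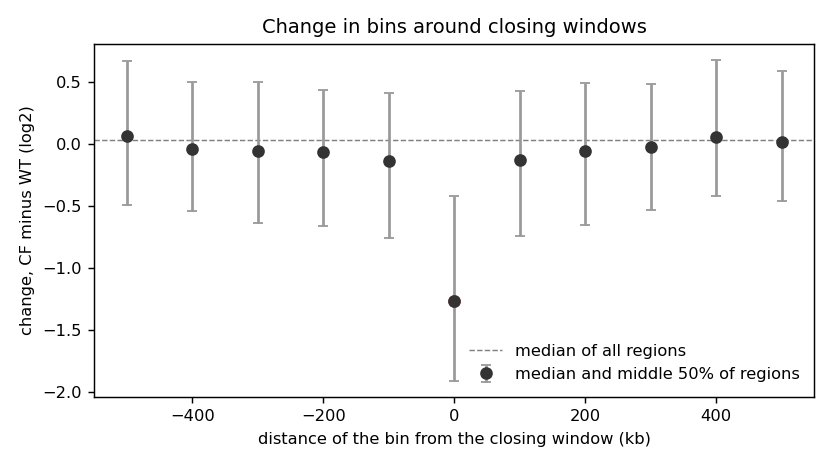
Change of regions, CF minus WT in log2, in the closing window (0 kb) and in the bins up to 500 kb on either side, leaving out regions of other closing windows; points are medians over regions and bars span the middle 50%. The median is −1.26 in the window and −0.14 and −0.12 in the bins next to it, and the dashed line is the 0.03 of all regions. The step between them follows in part from the rule.

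The size of the bins mattered for which regions were members. With bins moved by 50 kb, 182 windows met the rule, nearly as many as before, but only 38.4% of the members lay in them, and 38.9% of the regions in them were members. With bins of 200 kb, 132 windows met it and held 40.1% of the members. With bins of 50 kb, 114 windows did and held 31.5%. The remaining members lay in bins that did not meet the rule under that division.

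Members were of ordinary width, with a median of 552 bp against 557 bp for all regions and 574 bp for the regions of other windows with at least 5. The median gap to the nearest region was 5384 bp, wider than the 4279 bp in those other windows, which met the same minimum number of regions, and near the 5604 bp of all regions. The median SD between libraries on the log2 scale was 0.43 in CF and 0.59 in WT, compared with 0.35 and 0.66 over all regions. No test was run on these properties, as regions of 1 window are not independent.

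By level, members were few among the regions least accessible in WT. Of the 10 equal groups of all regions ordered by WT level, the lowest held 2.90% of the members and the sixth held 15.1%, the most. Ordered by CF level, the lowest group held 29.2% of the members. Opening windows showed the mirror image, with 29.0% of their regions in the lowest group by WT level. The rule used these levels, so the shares follow in part from it. The share called closed rose with the WT level. Of 3 equal groups of members, 7.69% were called closed in the one with the lowest WT level, 39.5% in the middle one and 64.5% in the highest, while the median changes were −0.86, −1.44 and −1.35. Over all regions of the same WT levels on the scaffolds kept, the share also rose, from 0.954% to 8.55% and 11.3%. At 19 members no CF library had more than 3 reads, and at 4 no WT library did. Raising all values to the level of 1 read in WT3 left the median change over the members at −1.22 and the number of closing windows at 171.

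The most accessible region of a window was usually lower in CF as well; it was picked by its WT signal, which the rule also used. In 169 windows (90.4%) the region with the highest WT signal was lower in CF, and in 106 (56.7%) it was called closed, with a median change of −1.23. Over all windows 68.4% of such regions were lower in CF and 9.15% were called closed, with a median of −0.17. In opening windows 37.2% were lower in CF and 5.03% were called closed, with a median of 0.21. In closing windows such regions were wider than members in general, at a median of 890 bp against 552 bp, and 66.8% had a peak in all 7 lists. Over all windows the same pick gave 965 bp and 82.1%, and in opening windows 780.5 bp and 51.0%.

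The members with the highest WT signal all lay on GL897838, a short scaffold with 5 regions that all ended before 13 kb. It took 7.15% to 8.97% of the reads in regions in the CF libraries and 13.0%, 14.0%, 22.5% and 22.6% in WT1 to WT4. Its 5 regions changed almost alike, from −1.56 to −1.39 (SD 0.065). Whether so high a signal reflects open chromatin, and what sequence this scaffold holds, was not tested. The WT libraries fell into 2 pairs here. GL897838:4343-5697 had a signal of 192026, 142728 and 156114 in CF1 to CF3, of 317145 and 332642 in WT1 and WT2, and of 770509 and 644994 in WT3 and WT4. WT3 and WT4 thus lay far above WT1 and WT2, and although CF lay below WT at all 5 regions, only GL897838:3190-3651 was called closed. That call was lost with the replicate block, where its change was −1.34, and without any one CF library, and the other 4 regions were called closed with edgeR, with DESeq2 and with the library size alone. The remaining 3 regions, GL897838:7097-8043, GL897838:11616-12390 and GL897838:10020-11288, had the same order of libraries, with WT means 2.76, 3.00 and 2.83 times the CF means. Without this scaffold the 1166 other members held 0.646% to 0.663% of the reads in CF and 0.928% to 1.10% in WT, and their median change was −1.25.

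A similar split of the WT libraries was seen elsewhere. GL897480:32082-33100 had the highest WT signal of the members outside GL897838 (a choice made after the values were seen, as for the regions of the next sentences). Its signal was 1598, 1264 and 1392 in CF1 to CF3, 2838 and 3046 in WT1 and WT2, and 7938 and 5903 in WT3 and WT4. On GL897878, whose 5 regions ended before 9 kb, the higher libraries were WT1 and WT3 instead: GL897878:5080-6172 had 136, 102 and 80.9 in CF1 to CF3 and 634, 350, 701 and 396 in WT1 to WT4. GL897878:6891-7133 had the lowest change of that window, −2.55. The third closing window on a scaffold whose last region ended before 100 kb was that of AEYP01109783, with sums of 311, 160 and 198 in CF1 to CF3 and of 632, 284, 750 and 340 in WT1 to WT4. There the lowest WT library was below the highest CF library.

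Other members with a high WT signal changed less. GL897124:843116-845285 had 404, 433 and 421 in CF1 to CF3 and 616, 934, 969 and 902 in WT1 to WT4, a change of −1.004, and was called closed. GL897156:1338583-1339861 averaged 541 ± 43.1 over the 3 CF libraries and 831 ± 166 over the 4 WT libraries (SD), a change of −0.60, and was not called. GL896911:5416987-5418689 showed no difference beyond the spread, at 851 ± 119 in CF and 882 ± 161 in WT, a change of −0.04 that turned positive under other scalings. In GL897381:142886-144213 the CF libraries had 1912, 1300 and 1373 and the WT libraries 1538, 805, 1735 and 964. This single strong region kept the summed signal of its window, at 100 to 200 kb, 0.19 higher in CF on the log2 scale although its median change was −1.41. The one other window with a higher sum in CF was GL896946 at 1200 to 1300 kb, by 0.12.

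Members could also be higher in CF, and 16.2% were not lower. A change above 1 was found in 39 (3.33%, against 15.3% of all regions), and 8 were called opened (0.68%, against 4.31%). The 3 largest increases were 3.00 at GL896903:5214917-5215330, 2.70 at GL896946:12011268-12011637 and 2.59 at GL896939:9273711-9274218. At the first, the signal was 12.5, 25.4 and 26.4 in CF1 to CF3, and each WT library had 1 read. At the second, it was 32.1, 32.1 and 19.1 in CF1 to CF3 and 2.93, 7.11, 3.08 and 1.68 in WT1 to WT4. All 3 lacked a peak in the WT lists. The 8 opened members lay in 8 different windows. Only 1 of them, GL896937:495480-496503, had a peak in all 7 lists, with 115, 97.7 and 93.3 in CF1 to CF3 and 74.8, 56.0, 36.9 and 40.2 in WT1 to WT4.

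In 11 closing windows no region was called closed, and in 5144 of all 7712 windows none was. GL897280 at 200 to 300 kb had one of the larger decreases among the 11, with sums of 65.1, 42.5 and 66.3 in CF1 to CF3 and 172, 171, 80.0 and 154 in WT1 to WT4. At the other end, GL896980 at 1900 to 2000 kb had sums of 498 ± 43.1 over the 3 CF libraries and 532 ± 25.2 over the 4 WT libraries (SD), although its median change was −1.13. A closing window could thus have nearly equal total signal in both genotypes.

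Each library was also examined in windows that its own values had not chosen. When the rule was applied to the other 6 libraries, 170 to 206 windows met it, of which 149 to 165 were among the 187. In the windows chosen without it, the left-out CF library differed from the WT mean by a median of −1.06 for CF1, −1.15 for CF2 and −1.01 for CF3, and by 0.06 to 0.08 over all regions on the scaffolds kept. The left-out WT library differed from the CF mean by 0.99 for WT1, 1.32 for WT2, 0.92 for WT3 and 1.18 for WT4, and by −0.02 to 0.02 over all regions. For 6 of the 7 libraries the difference was smaller than that of their genotype mates, which ran from −1.27 to −1.25 in CF and from 1.24 to 1.28 for WT1, WT3 and WT4; WT2 alone was above its mates' 1.27. The libraries of the other genotype still took part in the choice of these windows, so the values are a description.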

How the data were processed

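ATAC-seq was performed on 3 CF and 4 WT cultures. The authors trimmed paired-end reads, aligned them with Bowtie 2 to MusPutFur1.0, called peaks with MACS2 in each library and built a matrix of regions with DiffBind. How duplicate reads were handled and whether read ends were shifted to the transposase's cut is not given in the sources used here; both could change levels at narrow regions. Libraries were amplified with 12 PCR cycles and carry no molecular identifiers. The deposited matrix holds a normalized signal, which equalled whole reads multiplied by 1 factor per library for 100% of values (tolerance 0.001 reads). The deposited peak lists hold a score, a fold enrichment (ratio) and −log10 of a p-value and of a q-value, of which only the positions and fold enrichment were used.

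The members and the lists of windows were chosen with earlier results of these data known. Windows were bins of 100 kb, assigned by region start. Called regions came from limma 3.58.1 in R 4.3.3, fitted with a mean trend to log2(signal + 1) of all 95129 regions; genotype was the only term. The threshold was an adjusted p (Benjamini-Hochberg) under 0.05 together with a log2 change past 1. At few reads the pseudocount of 1 shrinks changes on this scale. The unequal value of 1 read shifts them towards a decrease, by −0.66 at 1 read in every library. Changes of such regions can therefore be understated or overstated. Peaks were matched to regions with bedtools 2.31.1 (at least 1 bp). Named windows were the 8 with the lowest medians, the 3 with most regions, runs of adjacent windows and 3 on either side of the threshold; named regions were the lowest and the most WT-accessible in each of the 8, the 5 members with the highest WT signal and the 3 with the largest increase. Windows or regions outside this rule are said to be chosen after their values were seen, and the same holds for windows named as exceptions to a count. Alternatives were other scalings, pseudocounts, filters, bins and thresholds, DESeq2 1.42.0 and edgeR 4.0.16 run on recovered reads, a replicate block, and leaving out each library. A common floor and a library size without the most read scaffold were added after the data were seen. Python 3.11.15, numpy 2.4.6, pandas 2.3.3 and matplotlib 3.10.9 were used.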

Additional observations from a re-analysis of the deposited data

Results flagged for a closer look

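Of 47 results searched for a WT library far from the other WT libraries (the CF group of 3 was too small), 1 was flagged. At GL897124:843116-845285 the log2 signal of WT1 was 9.27, while the other WT libraries lay between 9.82 and 9.92. The gap of WT1 to its nearest neighbour was 0.841 of the range of the 4 libraries, past the limit of Dixon's test. Chance flags about 1 in 20 such groups.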

How the results depend on the processing

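The median change over the members kept its sign in every alternative run, which their choice by a decrease in the same reads favoured. It was −0.93 with the library size alone, −1.08 with the library size without the most read scaffold and −1.03 with a pseudocount of 5, and −1.29 to −1.22 with each library left out. The library size alone shifted the median of all regions to 0.38, and members lay 1.31 below it, where the reported difference was 1.29. Closing windows numbered 80 and 109 with these scalings, 108 with a pseudocount of 5, 27 with a mean of at least 30 reads, 114 with bins of 50 kb and 11 with at least 10 regions; 170 to 206 were found with each library left out. Members called closed numbered 247 with a mean of at least 30 reads, where 457 members were tested, 252 with a log2 change past 2, and 297 to 482 with each library left out. Over all regions the called closed numbered 3436 with the library size alone, 3375 with at least 30 reads, 2818 with a log2 change past 2, and 3765 to 6923 with each library left out, the lowest without CF3 (CF1 3809, CF2 3901). Over the 26 named regions and their alternatives, 406 results kept direction and call, 24 lost a call and 24 gained one. With edgeR 499 members were closed, with DESeq2 557. GL896911:5416987-5418689, not called, changed by 0.32 with the library size alone, 0.00048 with TMM factors, 0.15 without the most read scaffold and 0.057 without CF3; with each library left out it ran from −0.15 to 0.070 (without WT3). Same-numbered CF and WT libraries correlated in their deviations by 0.078, 0.071 and −0.022, and differently numbered ones by −0.093 to 0.047. For CF1 and CF2 the same-numbered WT library had the highest value, but all values were small. The labels state no pairing, and none was assumed. A replicate block gave 452 closed members, where 436 were reported, and 6325 closed regions in all, where 5954 were reported. Depth limits regions near 1 read, most in WT3.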
